A study of Mus musculus with 10 samples.

Results

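The caspase gene family was examined in mouse peritoneal macrophages through 7 genes chosen by name: the inflammatory caspases Casp1, Casp4 and Casp12, the initiator caspases Casp2, Casp8 and Casp9, and the executioner caspase Casp6. Casp4 is the gene that encodes mouse caspase-11. The 7 genes were found in the deposited table of read counts by their NCBI gene identifiers, among 39488 rows, and 7 of 7 passed a filter on low counts that left 12654 genes to test. The study asked whether caspase-4/11-associated inflammatory genes are raised in macrophages exposed to oxidized low-density lipoprotein (ox-LDL), the modified lipoprotein taken up by macrophages in atherosclerotic lesions. The RNA-seq data covered thioglycollate-elicited peritoneal macrophages of C57BL/6 mice aged 8 weeks, as 5 control and 5 ox-LDL-treated samples. The ox-LDL-treated cells received LPS at 100 ng/ml and then ox-LDL at 100 µg/ml for 16 h, and the labels call the control cells untreated. The wording of the study leaves room for LPS in the control cells too, and the labels were followed here. As labelled, the effects of LPS and of ox-LDL cannot be told apart. The samples are described as biological replicates, but nothing says that each came from its own animal or culture, so p-values measure the spread between these samples.

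Caspases are cysteine proteases that cut their substrates after aspartate. Of the inflammatory caspases, caspase-1 is activated on inflammasomes and caspase-11 by cytosolic LPS. Both cleave gasdermin D, whose fragment opens pores in the membrane and drives pyroptosis. Initiator caspases start apoptosis from death receptors or from mitochondria and activate executioner caspases, which dismantle the cell. Their activity is set by cleavage and complex formation, which mRNA levels do not measure.

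In the ox-LDL-treated group, Casp4 and Casp12 rose and Casp9 fell at an adjusted p below 0.01, so that 2 of 7 genes were higher and 1 of 7 was lower. Over the genes tested, 9.40% were called higher and 5.35% lower by the same rule. Casp1 and Casp6 passed an adjusted p of 0.05 but not 0.01, which made 3 of 7 higher and 2 of 7 lower at that threshold, against 16.2% and 10.4% of the genes tested. Only Casp4 also passed the study's cutoff on fold change, an absolute log2 fold change above 2, which 4.78% of the genes tested passed upwards. Casp2 and Casp8 did not pass either threshold. Fold changes here are from edgeR's quasi-likelihood test with Benjamini-Hochberg adjustment over the genes tested, and levels per library are CPM, counts scaled to a common library size, after TMM normalization, which evens out differences in library composition.

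The libraries held 20094647 to 20687289 counts in the control group and 19257131 to 20358017 in the ox-LDL group. Expression fell with gene length relative to the group mean in control replicates 1 and 4 and ox-LDL replicate 2 (Spearman correlation -0.62, -0.52 and -0.68) and rose with it in the other libraries (0.12 to 0.52). The TMM factor of ox-LDL replicate 2 was 0.593, against 0.837 to 1.19 in the other libraries. The median log2 fold change of the genes tested was 0.10, against -0.09 with library size alone and -0.14 on the scale of log2(FPKM + 1), so a change of about this size carries no direction. On that FPKM scale 555 genes were called higher and 750 lower, against 1189 and 677 with edgeR. The summed CPM, by library size, of 9 macrophage markers was 23256 to 42903 in control and 13381 to 28382 in ox-LDL libraries, and Lyz2, which was not called (log2 fold change -0.67, adjusted p = 0.371 by edgeR), made up most of it. Of these 9 markers, Adgre1 (2.07) and Cd14 (2.24) rose and Mrc1 (-2.24) fell, with a median log2 fold change of 0.56. The largest sums of any other list of 5 to 8 marker genes of another cell type were those of mesothelial and stromal cells and of neutrophils, 162 and 90.8 CPM in single libraries. In bulk RNA, fewer cells of a type and less RNA per cell cannot be told apart.

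Casp1, Casp4 and Casp12 lie next to each other on the plus strand of chromosome 9 in the mouse build mm9, at chr9:5298517-5307265, chr9:5308828-5336783 and chr9:5345476-5373032. The gap between Casp1 and Casp4 was 1563 bases and that between Casp4 and Casp12 was 8693 bases. Coding transcripts of the 7 genes shared no run of 50 bases in any pair, so the 3 neighbours can be counted apart. The promoters of the 3 neighbours are shown because the genes sit side by side and differ by far in level. Each window runs from 250 bases before the RefSeq start to 50 bases from it on, in build GRCm38.p6, on the plus strand, and is printed 5′ to 3′. Capitals mark matches to the kappaB motif, named for the NF-kappaB factors, in Casp4 and to the GAS motif, the letters TTCNNNGAA bound by STAT factors, in Casp12.
Casp1, chr9:5298267-5298566: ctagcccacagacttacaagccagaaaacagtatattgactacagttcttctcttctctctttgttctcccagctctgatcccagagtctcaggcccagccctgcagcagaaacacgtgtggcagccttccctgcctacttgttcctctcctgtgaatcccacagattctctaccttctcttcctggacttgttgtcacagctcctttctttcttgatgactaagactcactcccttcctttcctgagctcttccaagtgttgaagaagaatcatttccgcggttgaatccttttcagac
Casp4, chr9:5308599-5308898: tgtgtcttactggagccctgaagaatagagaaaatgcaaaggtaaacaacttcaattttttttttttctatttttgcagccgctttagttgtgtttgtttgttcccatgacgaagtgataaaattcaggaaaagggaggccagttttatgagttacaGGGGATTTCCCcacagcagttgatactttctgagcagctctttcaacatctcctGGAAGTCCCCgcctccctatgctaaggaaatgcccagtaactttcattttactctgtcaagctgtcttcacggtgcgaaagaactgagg
Casp12, chr9:5345226-5345525: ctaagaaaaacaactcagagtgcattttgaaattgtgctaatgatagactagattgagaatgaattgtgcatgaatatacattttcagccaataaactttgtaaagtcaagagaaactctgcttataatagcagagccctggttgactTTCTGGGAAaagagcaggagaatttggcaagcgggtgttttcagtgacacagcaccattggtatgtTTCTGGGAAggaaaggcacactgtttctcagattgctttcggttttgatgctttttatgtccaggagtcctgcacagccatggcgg
The first run of capitals in Casp4 holds 2 overlapping kappaB matches, at 93 and 92 bases before the start, and the second run holds a match at 39 bases. From another RefSeq start of Casp4, whose window begins at chr9:5308610 and is not printed, the same matches lay at 104, 103 and 50 bases. Of 32851 promoter windows of this length in the RefSeq table, 8.459% held a kappaB match on either strand. The GAS matches of Casp12 lay 102 and 36 bases before the start, and 8.298% of windows held such a match. The interferon-regulatory factor motif GAAANNGAAA, found in 3.443% of windows, matched in none of the windows of the 7 genes. A match describes the letters and not the binding of a factor. The promoters also differed in CpG content. The ratio of observed to expected CpG was 1.135 in Casp9, 0.861 in Casp2 and 0.566 in Casp6. It was 0.195 in Casp1, 0.247 in Casp12, 0.378 in the printed window of Casp4 and 0.380 in Casp8, with a median of 0.384 over the windows.

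Casp4, whose product caspase-11 binds cytosolic LPS and cleaves gasdermin D, showed the largest rise of the 7 genes. Its levels in control replicates 1 to 5 were 47.0, 39.0, 36.7, 51.2 and 22 CPM. The ox-LDL replicates 1 to 5 were at 118, 476, 150, 123 and 139 CPM. The lowest ox-LDL library stood above the highest control library, and ox-LDL replicate 2 stood far above the other ox-LDL libraries. Casp4 had a log2 fold change of 2.36 (SE 0.42, 95% interval 1.43 to 3.28, adjusted p = 0.0017), a 5.13-fold rise. Without ox-LDL replicate 2 the log2 fold change was 1.71 (adjusted p = 0.000172), and the mean of the other 4 ox-LDL libraries was 132 CPM, against 201 CPM ± 154 (SD, n = 5) with it and 39.2 CPM ± 11.3 (SD, n = 5) in the control group. The raw count of Casp4 in that library was 5556, while the remaining ox-LDL libraries, of similar total count, held 2321 to 3081.

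Casp1 encodes the caspase of canonical inflammasomes, which matures IL-1β and IL-18. Its levels in control replicates 1 to 5 were 202, 153, 133, 159 and 102 CPM. Levels in ox-LDL replicates 1 to 5 were 259, 470, 254, 188 and 363 CPM. The groups overlapped through ox-LDL replicate 4 and control replicate 1, while 4 ox-LDL libraries stood above the control range. The difference was 1.03 on the log2 scale (SE 0.28, 95% interval 0.43 to 1.64, adjusted p = 0.0170). In FPKM, which scales counts by gene length and library total, the groups did not overlap, at 87.7 to 138 in control and 156 to 232 in ox-LDL libraries. Ox-LDL replicate 2, the highest in CPM, had 5492 counts and 207.16 FPKM. It stood below ox-LDL replicates 1 (5956 counts, 231.84 FPKM) and 5 (6078 counts, 228.94 FPKM).

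Casp12 encodes an inflammatory caspase associated with the endoplasmic reticulum, and its counts were low. In control replicates 1 to 5 there were 16, 7, 25, 11 and 29 counts, or 0.885, 0.300, 1.07, 0.567 and 1.26 CPM. In ox-LDL replicates 1 to 5 there were 66, 23, 60, 46 and 37 counts, or 2.87, 1.97, 2.93, 2.20 and 2.21 CPM. The groups did not overlap in CPM but did in FPKM, where ox-LDL replicate 2 was within the control range. Casp12 had a log2 fold change of 1.57 (SE 0.37, 95% interval 0.76 to 2.38, adjusted p = 0.00856). This call was lost when control replicate 1, 2, 3 or 4 or ox-LDL replicate 1, 3, 4 or 5 was left out (adjusted p = 0.013 to 0.028) and with other scalings, while the direction stayed higher. The summed CPM of 7 mesothelial and stromal markers was 14.9 to 49.9 in control and 64.9 to 162 in ox-LDL libraries, with Dcn leading and Msln at no more than 0.319 CPM in a library, and 3 of its 4 tested genes, Col1a1, Col1a2 and Dcn, were called higher. The summed CPM of neutrophil markers was 7.46 to 16.1 in control and 13.4 to 90.8 in ox-LDL libraries and was carried by S100a8, while S100a9, Mpo and Elane were at 0 to 0.4 CPM in each library and Ltf was at 0.394 to 1.57 CPM in control and 0 to 0.106 CPM in ox-LDL libraries. The part of these cells in the Casp12 level was not tested.

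**Figure D1:**
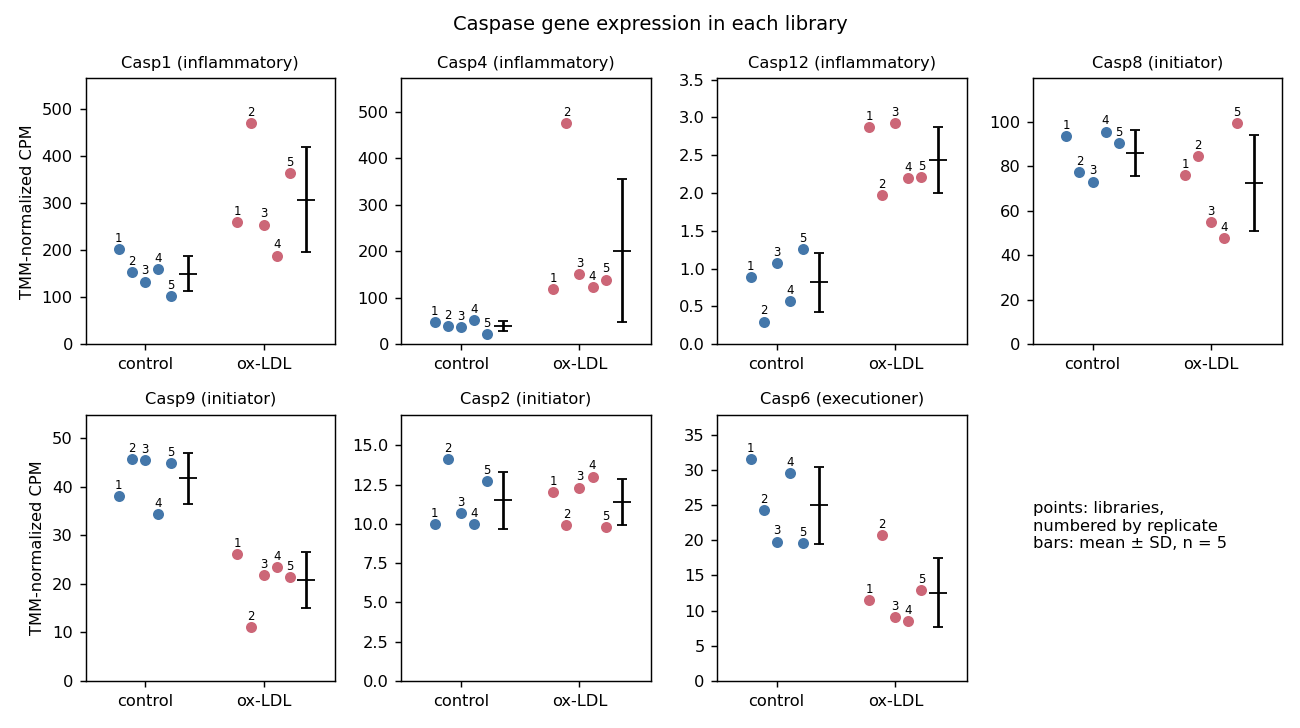
TMM-normalized CPM of the 7 caspase genes (y axis, from 0, a scale for each gene) in the 5 control and 5 ox-LDL libraries, with points numbered by replicate and bars for the mean ± SD. Casp4, Casp12 and Casp9 show no overlap between groups. Ox-LDL replicate 2 holds the highest Casp4 and Casp1 and the lowest Casp9 values. In raw counts its Casp1 value is below those of ox-LDL replicates 1 and 5.

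Casp9, the initiator caspase activated on the Apaf1 apoptosome, fell in the ox-LDL group. Its levels in control replicates 1 to 5 were 38.1, 45.6, 45.5, 34.3 and 44.9 CPM. The ox-LDL replicates 1 to 5 had 26.1, 11, 21.8, 23.4 and 21.4 CPM. The highest ox-LDL library was below the lowest control library, and ox-LDL replicate 2 was the lowest of the libraries. Casp9 had a log2 fold change of -1.01 (SE 0.22, 95% interval -1.49 to -0.52, adjusted p = 0.00555). The call was lost when control replicate 1, 2, 3 or 5 or ox-LDL replicate 3 or 4 was left out (adjusted p = 0.0111 to 0.0161). Casp9 overlaps Cela2a, which is on the opposite strand in mm9, and it is not stated whether counting used the strand.

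Casp8, the initiator caspase of death receptors, did not pass the test. Its levels in control replicates 1 to 5 were 93.5, 77.2, 73.0, 95.5 and 90.5 CPM. Those in ox-LDL replicates 1 to 5 were 75.8, 84.5, 54.7, 47.5 and 99.5 CPM. In CPM, ox-LDL replicates 3 and 4 were below the control range and replicate 5 was above it. The log2 fold change was -0.25 (SE 0.22, 95% interval -0.72 to 0.23, adjusted p = 0.440). In FPKM, where the control range was 36.11 to 44.52, ox-LDL replicates 2 to 5 were below it, at 21.29, 25.12, 22.61 and 35.75. Replicate 1 was within it, at 38.56. On the scale of log2(FPKM + 1) the difference was -0.468 (adjusted p = 0.124 by limma).

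Casp2, the initiator caspase of the PIDDosome, had nearly the same mean in both groups. Its levels in control replicates 1 to 5 were 9.96, 14.1, 10.7, 10.0 and 12.7 CPM. In ox-LDL replicates 1 to 5 they were 12.0, 9.93, 12.3, 13.0 and 9.80 CPM. The groups overlapped over most of their ranges. The difference was -0.01 on the log2 scale (SE 0.17, 95% interval -0.39 to 0.37, adjusted p = 0.974), an interval narrower than that of any other of the 7 genes, and its sign changed with the processing. Casp2 overlaps a small nucleolar RNA gene, SNORD88, on the same strand.

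Casp6, the executioner caspase among the 7 genes, was lower in 4 of 5 ox-LDL libraries than in any control library. Its levels in control replicates 1 to 5 were 31.5, 24.3, 19.8, 29.6 and 19.6 CPM. The ox-LDL replicates 1 to 5 were at 11.5, 20.7, 9.12, 8.56 and 12.9 CPM. Ox-LDL replicate 2 alone reached into the control range. Casp6 had a log2 fold change of -1.0 (SE 0.26, 95% interval -1.56 to -0.43, adjusted p = 0.0147). Leaving out ox-LDL replicate 2 gave -1.29 (adjusted p = 0.000646). In FPKM the groups did not overlap, at 16.8 to 21.5 in control and 7.02 to 10.2 in ox-LDL libraries.

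The 3 genes whose groups did not overlap in CPM were thus Casp4 and Casp12 upwards and Casp9 downwards. Of the genes tested, 11.6% had every ox-LDL library above every control library and 9.11% had every ox-LDL library below.

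**Figure D2:**
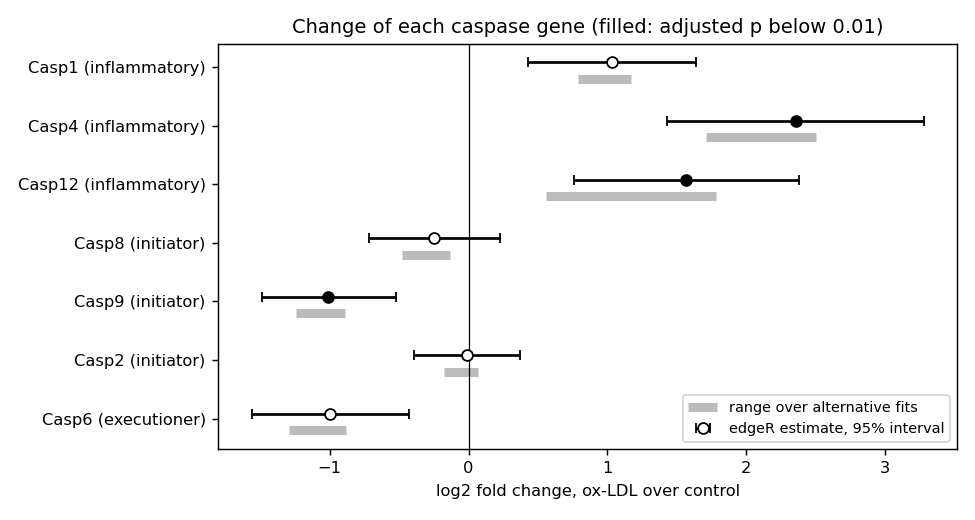
Log2 fold change of each caspase gene, ox-LDL over control (x axis), with points and bars for the edgeR estimate and its 95% interval, filled where the adjusted p was below 0.01, and grey bars for the range over the alternative fits. The intervals of Casp8 and Casp2 span 0, and the grey bar of Casp2 is the only one that crosses 0.

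Levels of different genes were compared per length, in FPKM. In the control group Casp1 was the most abundant of the 7 genes, at 119 FPKM ± 19.7 (SD, n = 5), followed by Casp8 at 39.0 ± 3.36, Casp4 at 30.6 ± 7.0, Casp6 at 19.5 ± 2.30, Casp9 at 12.1 ± 2.70, Casp2 at 3.68 ± 0.878 and Casp12 at 0.418 ± 0.219 FPKM. The ranges of Casp8 and Casp4 overlapped, as did those of Casp4 and Casp6, although each of the 5 libraries kept this order. In the ox-LDL group the order was Casp1 at 206 ± 30.4, Casp4 at 127 ± 52.6, Casp8 at 28.7 ± 7.93, Casp6 at 8.30 ± 1.31, Casp9 at 5.58 ± 2.50, Casp2 at 3.33 ± 1.14 and Casp12 at 1.11 ± 0.483 FPKM. Casp4 thus stood below Casp8 in every control library and above it in every ox-LDL library. The ranges of Casp1 and Casp4 overlapped in the ox-LDL group through replicate 2 alone, where Casp4 was at 219 FPKM and Casp1 at 207 FPKM. The ranges of Casp6 and Casp9 overlapped, and so did those of Casp9 and Casp2, again with replicate 2 the only library with Casp2 above Casp9. TMM-normalized CPM per kilobase gave the same order in each group.

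As shares of the summed FPKM of the 7 genes, the inflammatory caspases made up 66.4% ± 5.20 (SD, n = 5) in the control and 87.7% ± 3.08 (SD, n = 5) in the ox-LDL group. The share of Casp4 was 10.2% to 16.6% in control and 24.0% to 47.6% in ox-LDL libraries, with a mean of 29.3% without replicate 2. The share of Casp1 was similar, with means of 52.7% ± 3.97 and 54.4% ± 6.45 (SD, n = 5). The initiator caspases went from 24.9% ± 5.15 to 10.1% ± 2.88, and Casp6 from 8.72% ± 0.592 to 2.20% ± 0.250 (SD, n = 5). The summed FPKM itself was 187 to 243 in control and 301 to 461 in ox-LDL libraries, so a share can fall without a like fall of the gene. Casp2, with means of 3.68 and 3.33 FPKM, had mean shares of 1.67% and 0.917%. Casp1 kept a similar share while its mean went from 119 to 206 FPKM. These shares were described without a test.

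**Figure D3:**
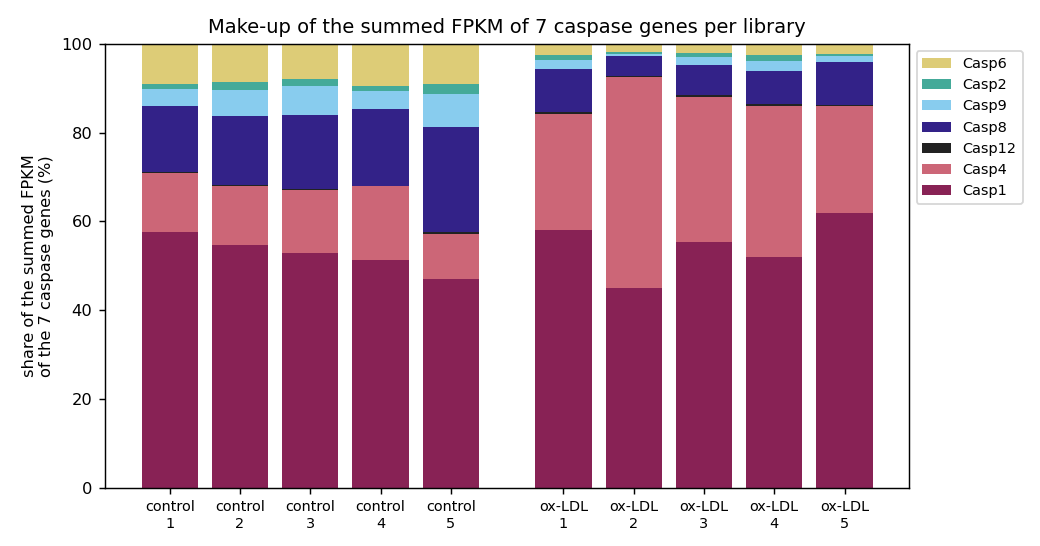
Share of each caspase gene in the summed FPKM of the 7 genes (y axis, percent) for each library (x axis, group and replicate). The Casp4 part widens from 10.2% to 16.6% in control libraries to 24.0% to 47.6% in ox-LDL libraries, while the Casp8, Casp9, Casp2 and Casp6 parts narrow on average. The summed FPKM is larger in each ox-LDL library than in any control library, so a narrower part need not be a lower level.

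Whether pairs of caspase genes changed by different factors was tested on their ratio within each library, which does not depend on the scaling between libraries. It can still depend on the length trend of a library where the 2 genes differ in length. Over 21 pairs, 14 shifted at an adjusted p below 0.05, by a two-sided exact permutation test over every arrangement of 5 against 5 libraries with Benjamini-Hochberg adjustment, and 13 of them without overlap between groups. The smallest p that 5 against 5 libraries allow is 0.00794, which these 13 pairs had (adjusted p = 0.0128). The 21 pairs share 7 genes and are not separate results. Pairs of other genes were not examined, so these counts cannot be read as particular to the caspase genes. The largest shifts were those of Casp4 over Casp9 and over Casp6, 3.23 and 3.21. For Casp4 over Casp9, the mean log2 ratio was -0.14 ± 0.62 (SD, n = 5) in control and 3.10 ± 1.33 in ox-LDL libraries. The count ratio of Casp4 to Casp9 was 0.490 to 1.49 in control libraries, 4.53 to 6.91 in 4 ox-LDL libraries and 43.4 in ox-LDL replicate 2. Without that library the shift was 2.65, below those of Casp4 over Casp6 (3.04) and Casp12 over Casp6 (3.0). With the length trend removed, Casp4 over Casp9 shifted by 3.38, and 17 of the 21 pairs shifted.

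Between the neighbours Casp1 and Casp4, whose transcript lengths implied by the values are 1309 and 1307 bases, the count ratio of Casp4 to Casp1 was 0.232, 0.254, 0.277, 0.322 and 0.216 in control replicates 1 to 5. The ratio in ox-LDL replicates 1 to 5 was 0.456, 1.01, 0.592, 0.651 and 0.382. The groups did not overlap, and Casp4 gained on Casp1 by 1.18 on the log2 scale (exact permutation test, adjusted p = 0.0128). Casp12 over Casp4 and Casp12 over Casp1 were not separated from no shift (adjusted p = 0.533 and 0.269). Each inflammatory caspase gained on Casp6, Casp8 and Casp9, with shifts of 1.29 (Casp1 over Casp8) to 3.23. Casp6 and Casp9 had a mean ratio that shifted by 0.02 (adjusted p = 0.984), while Casp6 lost against Casp8 by 0.75 (adjusted p = 0.0238) with overlap between groups. Casp9 lost against Casp2 by 1.05 without overlap (adjusted p = 0.0128). The ratios of Casp1 and of Casp6 to Casp2 had an adjusted p of 0.0521, that of Casp8 to Casp9 0.0686 and that of Casp2 to Casp8 0.421.

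**Figure D4:**
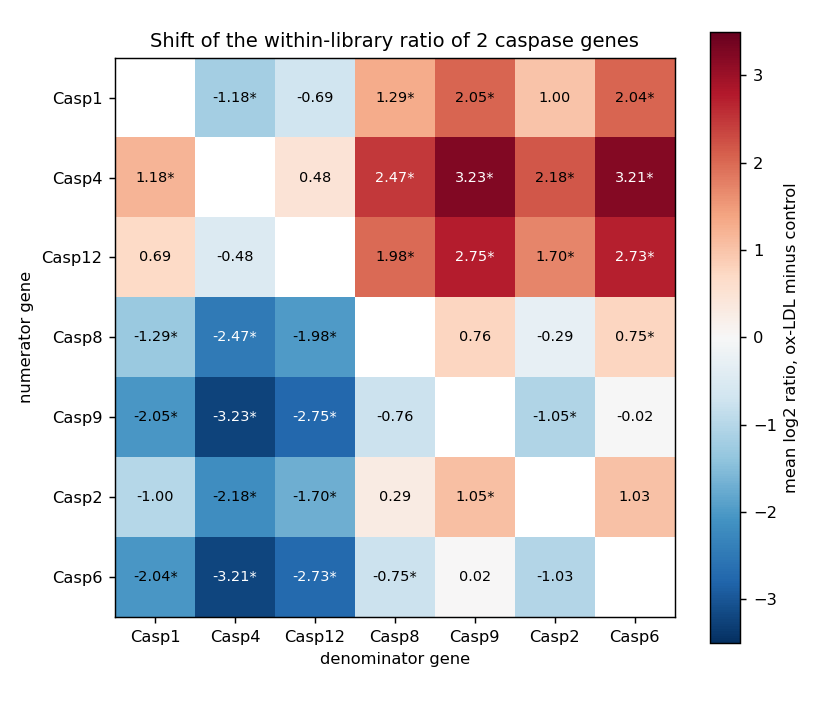
Shift of the mean within-library log2 ratio, ox-LDL minus control, for the gene of each row over the gene of each column, with an asterisk where the exact permutation test gave an adjusted p below 0.05. The rows of Casp4 and Casp12 are highest against Casp9 and Casp6, from 2.73 to 3.23, and the ratio of Casp6 to Casp9 is near 0.

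For each caspase gene, the genes with the most alike pattern were those with the smallest root mean square difference in log2 CPM over the 10 libraries, each profile centred on its control mean, among 9023 genes. For Casp4 they were Bcl2a1d, a BCL2-family gene, at 0.259, Esd at 0.321 and Ggct at 0.406, with log2 fold changes of 2.52, 2.19 and 2.88. For Casp1 they were Nmi (0.165), Ints12 (0.195) and Cd302 (0.201). For Casp12 they were Zcchc4, Hook2 and Erap1, at 0.322 to 0.326. For Casp9 they were Lipa, which encodes lysosomal acid lipase (0.119), Tmem260 (0.136) and Galnt7 (0.142). For Casp6 they were Acat1, a mitochondrial thiolase (0.144), Lat2 (0.155) and Cd84 (0.157). The nearest to Casp8 were Zfp87, Stx7 and Cyria, and the nearest to Casp2 were Cactin, Brap and Ppm1a, at 0.103 to 0.142. These values describe 10 libraries of 2 groups and are not tests.

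Genes that act with the caspases were read from 9 lists of sensors, adaptors, substrates, inhibitors and inducers, with 106 genes tested, of which 35 rose and 4 fell by edgeR's test with adjusted p under 0.01. These counts are descriptions beside the 9.40% and 5.35% of the genes tested given above. Sensors and adaptors of inflammasomes, where caspase-1 is activated, were listed together with related sensors, with 14 genes tested. Of these, 5 were higher and 1 lower, with a median log2 fold change of -0.03. Mefv (3.52), Nlrp3 (2.88), Nod1 (2.38), Nod2 (1.45) and Naip2 (1.43) rose and Nlrp1a (-4.59) fell. Among them, Nod1 and Nod2 are related sensors and not sensors of the caspase-1 inflammasome. The call of Mefv was lost without control replicate 1, 2 or 4 and that of Nod2 without any 1 of 8 libraries, all but control replicate 5 and ox-LDL replicate 2. The number called higher was 3 without control replicate 1, 2 or 4, and the number called lower was 4 without ox-LDL replicate 1 and 2 without ox-LDL replicate 2. Pycard, the adaptor that joins sensors to caspase-1, had a log2 fold change of -0.19 (SE 0.54, adjusted p = 0.832 by edgeR). Of 6 tested genes of a list on LPS delivery to caspase-11, 5 were higher, with a median of 5.29. Membership of this list does not say whether a gene promotes or restrains the response to LPS. They were the guanylate-binding protein genes Gbp5 (7.95), Gbp2 (6.52), Gbp3 (5.77) and Gbp7 (4.80), and Irgm2 (3.07).

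Of 7 tested substrates and effectors of pyroptosis, 2 were higher and 1 lower, with a median of 0.52. Gsdmd, the gasdermin cut by caspase-1 and caspase-11, was 39.1 to 51.0 CPM in control and 68.3 to 175 CPM in ox-LDL libraries, with a log2 fold change of 1.22 (SE 0.25, adjusted p = 0.0036 by edgeR). The count ratio of Casp4 to Gsdmd was 0.480 to 1.31 in control and 0.793 to 4.36 in ox-LDL libraries, and the groups overlapped. The Gsdmd call was lost without control replicate 2, 3 or 4 (adjusted p = 0.0119 to 0.0135 by edgeR). Panx1, a membrane channel, rose (1.42), a call kept only without ox-LDL replicate 2 or 5, so that 0 genes of this list were called higher without control replicate 2, 3 or 4, and 1 without control replicate 1 or ox-LDL replicate 1, 3 or 4. Without ox-LDL replicate 1, 2 genes of it were called lower. In the fit of 10 libraries, Gsdme, another gasdermin gene, fell (-2.27).

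Of 18 tested genes of the death receptor branch, where caspase-8 acts, 7 were higher, with a median of 0.90. The 3 highest were Zbp1 (5.41), Tnf (4.89) and Mlkl (2.99), and the 3 lowest of those called were Rnf31 (1.38), Traf2 (1.78) and Fas (2.63). The call of Rnf31 was lost without control replicate 1 or 4 or ox-LDL replicate 4. Cflar, the gene of the caspase-8 regulator c-FLIP, lies 36490 bases before Casp8 on chromosome 1 in mm9 and had a log2 fold change of 2.75 (SE 0.25, adjusted p = 2.36e-05 by edgeR). The count ratio of Cflar to Casp8 was 0.257 to 0.453 in control and 1.74 to 4.22 in ox-LDL libraries, so that Casp8 had more counts than Cflar in every control library and fewer in every ox-LDL library. This ratio was chosen after its values were seen and was not tested.

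Of 17 tested genes of the mitochondrial branch, where caspase-9 acts, 2 were higher, Bcl2a1d (2.52) and Bid (0.70), and Bcl2l11, which encodes the death-promoting protein Bim, was lower (-1.69), with a median of 0.49. Without control replicate 2, 3, 4 or 5 neither Bcl2a1d (adjusted p = 0.0121 to 0.0145 by edgeR) nor Bid kept its call, and the Bid call was also lost without control replicate 1 or ox-LDL replicate 3 or 4. Without ox-LDL replicate 2, 2 genes of the branch were called lower. Apaf1, the scaffold that activates caspase-9, had a log2 fold change of 0.49 (SE 0.26, adjusted p = 0.197 by edgeR). Of 4 genes of the PIDDosome branch of caspase-2, Mdm2, a caspase-2 substrate, rose (1.33), and the median was -0.05. Of 13 tested genes listed as inhibitors of caspases, 5 were higher, with a median of 0.73: Serpinb9 (4.08), Serpinb9b (3.41), Cflar, Birc3 (2.37) and Naip2. The listing does not mean that each product inhibits a caspase directly. Serpinb9 is also known as an inhibitor of granzyme B and Naip2 as a sensor of bacterial secretion systems. Xiap, which inhibits caspase-9 and executioner caspases, had a log2 fold change of -0.03 (adjusted p = 0.923 by edgeR). Of 10 tested substrates of executioner caspases, Xkr8, a scramblase that exposes phosphatidylserine, rose (2.81), and the median was -0.19.

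Of 23 tested genes listed as inducers of Casp4, 9 were higher and 1 lower, with a median of 1.00. The list held genes of the Toll-like receptor 4, interferon and NF-kappaB pathways, which are known to induce Casp4. It also held the transcription factor genes Cebpb, which was called higher (2.19), and Ddit3, which was not called (1.65). The genes called higher included the transcription factor genes Irf1 (4.70) and Irf7 (4.54). The 3 lowest of those called were the interferon-gamma receptor gene Ifngr1 (-1.66), Ticam2 (1.00) and Ifnar2 (1.58). The call of Ifnar2 was lost without any control replicate or ox-LDL replicate 5, and 2 genes were called lower without ox-LDL replicate 1 or 2. Tlr4, the receptor for extracellular LPS, had a log2 fold change of -0.96 (adjusted p = 0.0346 by edgeR).

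**Figure D5:**
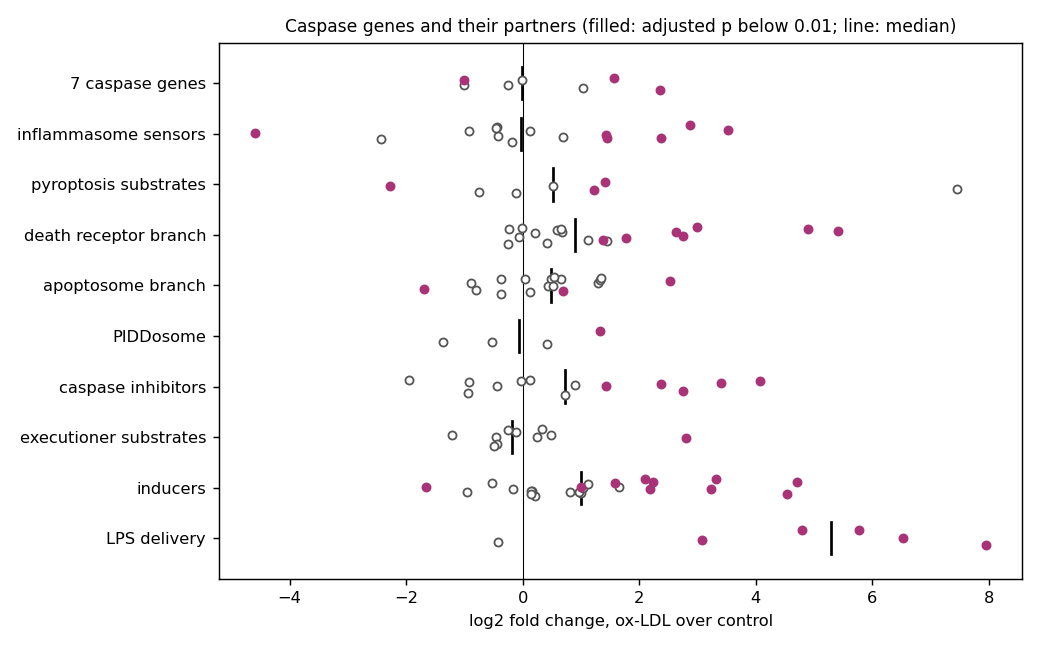
Log2 fold change, ox-LDL over control (x axis), of the 7 caspase genes and of the tested genes of 9 partner lists (rows), with filled points for an adjusted p below 0.01 and vertical lines for list medians. The LPS delivery list has the highest median, 5.29, and the 7 caspase genes have a median of -0.01, with members on both sides of 0.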

How the data were processed

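RNA of 5 control and 5 ox-LDL-treated macrophage samples was sequenced on the BGISEQ-500 platform. Per the labels' processing notes, the tools were HISAT2 2.0.5 and StringTie with the build mm9. The authors deposited estimated counts, not normalized (13.57% of values were not whole numbers), and a second value for each gene in each library, without a named unit. The ratio of count to that value, scaled by library total, was a nearly constant length for a gene (median coefficient of variation 1.58% over 9063 genes), and the deposited second values were therefore taken as FPKM.

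Estimated counts were rounded, 9788 rows of circular RNAs were left out, and genes were filtered with filterByExpr, normalized by TMM and tested with edgeR 4.0.16 (robust quasi-likelihood test, R 4.3.3) with Benjamini-Hochberg adjustment. Calls used the study's false discovery rate of 0.01. Standard errors were the absolute log2 fold change divided by the square root of F. Pair ratios were log2((count + 0.5) / (count + 0.5)). Loci came from the GENCODE annotation of mm9, and names and promoters from RefSeq (GRCm38.p6; 7 of 7 genes matched). Alternatives were DESeq2 1.42.0, limma-voom (limma 3.58.1), other scalings, filters and thresholds, limma on FPKM, the replicate number as a block, and each library left out. The edgeR, DESeq2 and limma-voom fits were tested on simulated counts, which held no length trend and no outlying library. The other steps were not tested on simulated data. Intervals are for the replicate spread, and counts of at most 29 in a control library limit Casp12.

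The 7 genes and the lists were chosen with earlier results of these data known. Named partner genes were the 3 highest and 3 lowest log2 fold changes among those called in each list, with Gsdmd; some of these genes are not reported here. Pycard, Apaf1, Xiap, Tlr4, Cebpb and Ddit3 were added after their values were seen.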

Additional observations from a re-analysis of the deposited data

Results flagged for a closer look

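Casp4 in ox-LDL replicate 2 stood apart from the other ox-LDL libraries. It was at 476 CPM, the next library was at 150 CPM, and the gap was 0.91 of the range of the 5 libraries, above Dixon's 95% limit of 0.71. Of 14 groups of 5 libraries examined over the 7 genes, this was the only 1 past the limit, against 0.7 by chance. The same library had the lowest TMM factor and the strongest negative trend of expression on gene length, and their part in the Casp4 level was not tested. Without it, Casp4 was still called higher, with a log2 fold change of 1.71, below the fold cutoff of 2.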

How the results depend on the processing

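Casp4 was called higher in each of 24 alternative fits (log2 fold change 1.71 to 2.50). It fell below the fold cutoff of 2 without ox-LDL replicate 2 (1.71) and with FPKM + 1 with and without a filter (1.98). The same held with the libraries of positive length trend only (1.98). Casp1, Casp6, Casp8, Casp9 and Casp12 kept their direction in every fit that tested them, and Casp12 was not tested with at least 10 counts in every library or in the filtered FPKM fits. Casp1 passed 0.01 with DESeq2 (1.04) and with the length trend removed (1.04), and passed 0.05 throughout (main value 1.03). Casp6 passed 0.01 with DESeq2 (-0.99), limma-voom (-1.07), upper-quartile scaling (-1.15), library size alone (-1.24), no filter (-1.06), FPKM + 1 with and without a filter (-1.15), FPKM + 0.1 (-1.23) and the length trend removed (-1.0). At 0.05 Casp6 (-1.0) and Casp1 were added. Casp9 lost its call with library size alone (-1.11, adjusted p = 0.0436), FPKM + 1 with and without a filter (-1.08) and FPKM + 0.1 (-1.24), and with the fold cutoff (-1.01). Casp12 lost its call with upper-quartile scaling (1.44), library size alone (1.43), no filter (1.5) and FPKM + 1 without a filter (0.56, adjusted p = 0.0898), and with the fold cutoff (1.57). Casp2 changed sign with limma-voom (0.001).

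The number of caspase genes called higher fell from 2 to 1 with upper-quartile scaling, library size alone, no filter, at least 10 counts, the FPKM fits and the fold cutoff. The number called lower rose from 1 to 2 with DESeq2, limma-voom, upper-quartile scaling, no filter, the length trend removed and the 0.05 threshold, and was 0 with the fold cutoff. The partner genes called lower rose from 4 to 11 with DESeq2 and at 0.05. By list, genes called higher went from 9 to 14 with DESeq2 and 15 at 0.05 for inducers, and from 2 to 4 at 0.05 for the mitochondrial branch. Genes called lower went from 1 to 4 with DESeq2 and 3 at 0.05 for sensors, and from 1 to 2 under both for pyroptosis substrates and inducers. The cause of these changes was not tested.

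With each library left out in turn, log2 fold changes were 0.79 to 1.17 for Casp1, -0.0663 to 0.0662 for Casp2, -1.29 to -0.88 for Casp6, -1.10 to -0.89 for Casp9 and 1.35 to 1.78 for Casp12. The calls were 1 to 2 higher and 0 to 2 lower among the caspase genes, and 4 to 10 lower among the partner genes. Of 39 partner genes called, 31 kept the call in every leave-out and 8 (Bcl2a1d, Bid, Gsdmd, Ifnar2, Mefv, Nod2, Panx1 and Rnf31) lost it in at least 1. Over the alternatives, 14 to 17 caspase pairs shifted. With the 7 libraries of positive length trend only, chosen after seeing the data, Casp6 passed 0.01 (-1.06), Casp12 did not (1.49), and 1 gene was called higher and 2 lower.

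With the replicate number as a block, Casp9 (-1.05, adjusted p = 0.0198) and Casp12 (1.67, adjusted p = 0.0113) lost their calls, leaving 1 gene higher and 0 lower, and over the genes tested calls went from 1189 and 677 to 885 and 549. By edgeR with this block, Casp9 still had an adjusted p below 0.05. Whether the replicate numbers pair the samples is not stated. Same-numbered deviations correlated at 0.03, -0.24, 0.42, -0.26 and 0.40, and only control replicate 5 was most like its own number. Control replicates 1 and 4 were both most like ox-LDL replicate 2, and these libraries share a negative length trend. Such a trend enters the correlations, so they cannot decide the question.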
